A study of Saccharomyces cerevisiae with 34 samples.

Results

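The 8 nuclear genes that encode the enzymes of the yeast heme synthesis pathway were followed in mRNA, in ribosome footprints and in their ratio: HEM1, HEM2, HEM3, HEM4, HEM12, HEM13, HEM14 and HEM15. They were chosen by name as the pathway's enzymes and found by their systematic names (YDR232W, YGL040C, YDL205C, YOR278W, YDR047W, YDR044W, YER014W and YOR176W), 8 of the 6679 genes in each deposited table. The study asked how budding yeast (Saccharomyces cerevisiae, SK1 background) remodels its gene expression when proteins misfold in the endoplasmic reticulum, and how much of that needs Hac1, the transcription factor of the unfolded protein response. Its question included transcript isoforms that cover a gene but are poorly translated, and the values per gene used here do not separate isoforms. All cells grew exponentially in rich glucose medium, with mRNA-seq and ribosome profiling (34 libraries in 17 samples, where a sample is 1 strain and treatment, at 1 labelled hour in the auxin experiment, with an mRNA and a footprint library).

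In the auxin experiment, cells carried TIR, the plant receptor through which auxin directs a degron-tagged protein to degradation, or lacked it (no-TIR). TIR cells given auxin are the Hac1-depleted cells of the study, and no-TIR cells given auxin retain Hac1. The 6 groups were TIR with auxin and DTT, no-TIR with auxin and DTT, TIR with vehicle and DTT, no-TIR with vehicle and DTT, TIR with auxin alone, and no-TIR with auxin alone. Auxin was given at 500 µM together with 4 µM IP6, vehicle was DMSO and water, and after 15 min of that pretreatment DTT, a reductant that breaks the disulfide bonds of folding proteins, was added at 5 mM. Each group had a library labelled 1 h and a library labelled 2 h for each molecule, except no-TIR with auxin alone, which had the 1 h library. The labels used here do not say what promoter drives TIR, or whether the no-TIR strain carries the same Hac1 tag. In the deletion experiment, hac1 deletion cells and wild-type cells were each treated with 5 mM DTT, treated with 2 µg/mL tunicamycin (Tm, an inhibitor of N-glycosylation) or left untreated, with 1 library for each strain, treatment and molecule.

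Heme is built from glycine and succinyl-CoA by enzymes that sit on both sides of the mitochondrial membranes. Hem1 makes 5-aminolevulinate in the mitochondrial matrix, Hem2, Hem3, Hem4, Hem12 and Hem13 carry the intermediates through the cytosol to protoporphyrinogen, and Hem14 and Hem15 finish the molecule at the inner mitochondrial membrane, where the ferrochelatase Hem15 inserts iron. Heme is the cofactor of cytochromes, catalases and sterol-synthesis enzymes, and in yeast it also reports oxygen to the transcription machinery, with HEM13 a known target of the hypoxic repressor Rox1.

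Values are RPKM as deposited, reads divided by gene length and by library size, so they can be compared between genes on a per-length scale, and the footprint to mRNA ratio serves as the measure of translational efficiency. Depth recovered from the steps between low values was 10.2 to 32.4 M reads in genes per mRNA library and 6.46 to 36.6 M per footprint library, and each member had at least 294 mRNA reads and 101 footprint reads in every library (both minima are HEM4). HAC1, the targeted gene of the deletion, was at 5.43, 17.7 and 42.1 mRNA RPKM in hac1 deletion cells with DTT, with Tm and untreated, against 5216, 4325 and 2372 in wild-type cells, which fits the strain labels. The depletion acts on the protein, so HAC1 mRNA does not check it: 24305 and 22574 RPKM in TIR cells with auxin and DTT, and 25555 and 28075 in the matching no-TIR cells. KAR2, the ER chaperone that Hac1 induces, was at 4051 and 3595 mRNA RPKM in the depleted samples and 14791 and 14385 in the retained ones, and at 939 to 1142 without DTT. So DTT still raised KAR2 in depleted cells, whereas hac1 deletion cells had 1277 RPKM with DTT and 907 untreated. Whether Hac1 activity remained in the depleted cells was not tested, and depleted is not used here to mean absent. Per the labels' protocols the treatments of a strain were subcultures of that strain's culture. Whether the libraries of 1 h and of 2 h are separate cultures is not given. The tests therefore judge a difference between groups against a spread, which is how far groups differ in their change from 1 h to 2 h. That spread may hold both a time course and technical variation, which cannot be told apart, and it is not a spread between biological replicates. For the 12 deletion libraries the molecule label contradicts the title, and titles and column names were followed.

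Without DTT the pathway was carried unevenly. In the 3 samples with auxin alone, HEM2 mRNA stood highest at 1184 to 1319 RPKM, followed by HEM12 at 740.5 to 778, HEM3 at 488 to 524 and HEM13 at 437 to 458. HEM15 (217 to 251) and HEM1 (216 to 251) overlapped below them, and HEM14 (123 to 156) and HEM4 (120.3 to 127) overlapped at the bottom. The order in footprints was different, with HEM1 in the second place. HEM2 had 941 to 1061 footprint RPKM, HEM1 722 to 759, HEM13 501 to 519 and HEM12 366 to 388. Below them HEM3 had 253 to 273 footprint RPKM and HEM15 227 to 253, ranges that lie next to each other, then HEM4 had 60.4 to 68.5 and HEM14 49.4 to 50.5. The footprint to mRNA ratio of HEM1 was 2.87 to 3.51, and HEM1 had the highest ratio of the 8 genes in each of the 17 samples of both experiments. HEM15 was translated at a ratio of 0.921 to 1.17, which overlapped HEM13 (1.10 to 1.18) and lay above HEM2 (0.748 to 0.834), HEM3 (0.520 to 0.521), HEM4 (0.480 to 0.570), HEM12 (0.485 to 0.524) and HEM14 (0.325 to 0.408).

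**Figure D1:**
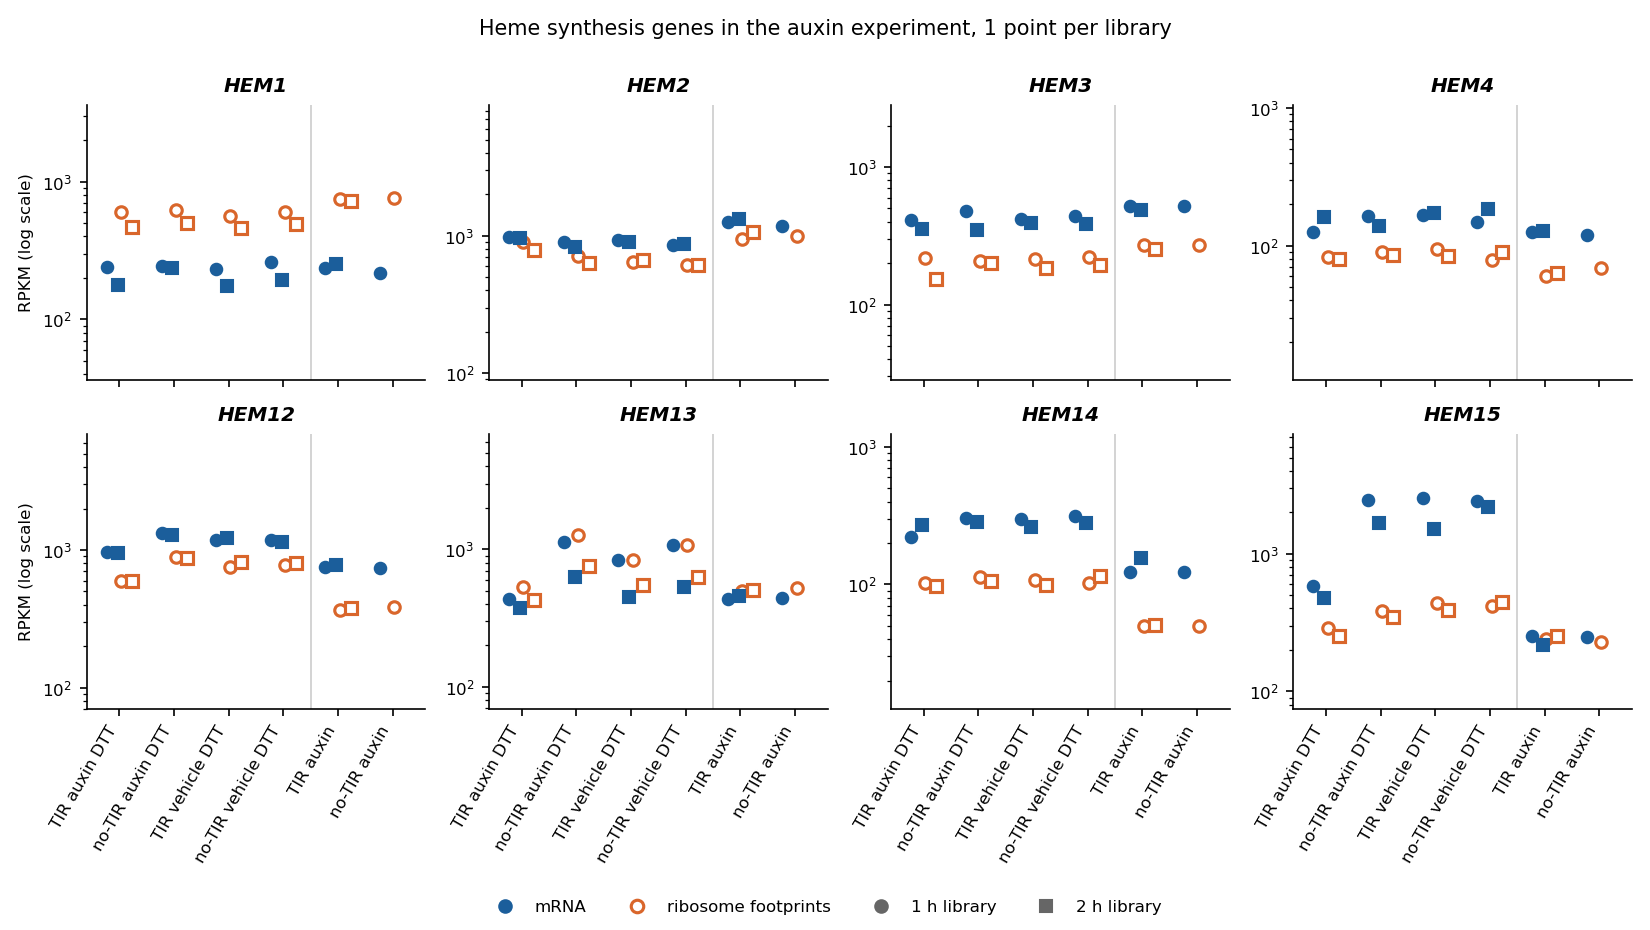
mRNA (filled) and footprint (open) RPKM of the 8 genes on log axes, 1 point per library of the auxin experiment, with circles for 1 h and squares for 2 h; each panel spans the same fold range, and a grey line separates DTT samples from auxin alone. HEM15 mRNA lies at 475 to 581 RPKM in the depleted DTT samples, against 1514 to 2546 in the 6 DTT libraries with Hac1 retained, while its footprints span 254 to 286 RPKM in the depleted samples and 344 to 448 in the retained ones.

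With Hac1 retained, DTT raised the mRNA of the late enzymes HEM12, HEM13, HEM14 and HEM15 and lowered that of HEM2 (no-TIR auxin DTT against no-TIR auxin). The changes on the log2(RPKM + 1) scale ran from 0.83 ± 0.16 for HEM12 to 3.24 ± 0.21 for HEM15 (estimate ± SE), which is 9.43-fold. So 4 of the 8 mRNAs were called higher and 1 lower at an adjusted p under 0.05 (limma with the group and the labelled hour as terms, Benjamini-Hochberg over every gene averaging 5 RPKM or more), where 28.6% of the 5757 genes tested were called higher and 12% lower. In footprints 5 of the 8 were called higher and 1 lower, against 47.5% and 14.6% of 5338 genes. In translational efficiency HEM15 was called lower and no member higher, against 1.41% lower and 1.91% higher of 5329 genes. The members' median mRNA change was 0.56 beside 0.24 over all genes tested. The single control library of this comparison was taken to vary like the other groups. It is a 1 h library, so its 2 h value comes from an hour effect taken as equal with and without DTT. These are bulk cultures, so a change in every cell and a change in a share of the cells cannot be told apart.

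The scale of the values matters for the smaller changes. Under DTT the median gene was 0.26 higher in mRNA and 0.29 higher in footprints (log2) with Hac1 depleted, and 0.24 and 0.34 with Hac1 retained. Median-ratio scaling of the libraries moved these medians to 0.00, -0.02, -0.01 and 0.01. With Hac1 depleted it gave 1529 higher and 1567 lower mRNAs over all genes, against 2364 and 1008 as deposited, and 1673 higher and 1778 lower footprints, against 2649 and 1058. With Hac1 retained it gave 935 higher and 1063 lower mRNAs, against 1647 and 691 as deposited, and 1415 higher and 1424 lower footprints, against 2537 and 782. No called change of a member turned its direction under it. In the 2 DTT responses it ended the calls of HEM4 footprints and of HEM12 mRNA that are marked where they are given, and it added lower calls for HEM1 mRNA (-0.49, adjusted p = 0.0256) and HEM2 footprints (-0.56, adjusted p = 0.0015) with Hac1 depleted, and for HEM3 mRNA (-0.51, adjusted p = 0.043), HEM3 footprints (-0.65, adjusted p = 0.00391) and HEM1 footprints (-0.65, adjusted p = 0.00205) with Hac1 retained.

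Among the first enzymes, HEM1, which makes 5-aminolevulinate, had 244 and 238 mRNA RPKM at 1 h and 2 h in retained cells with DTT, against 216 in no-TIR cells with auxin alone. Its footprints were 625 and 503 RPKM with DTT and 759 without, so both DTT libraries were lower. Neither difference passed the test, at 0.28 ± 0.20 (adjusted p = 0.285) in mRNA and -0.30 ± 0.12 (adjusted p = 0.0626) in footprints. HEM2, which condenses 5-aminolevulinate to porphobilinogen, fell to 894 and 826 mRNA RPKM in DTT, against 1184 without it. Its footprints fell to 715 and 629.6 RPKM, against 988. Both DTT libraries lay below the control library, with limma changes of -0.45 ± 0.16 (adjusted p = 0.0452) in mRNA and -0.54 ± 0.14 (adjusted p = 0.00981) in footprints. How many of all genes separate from the control library in this way was not counted, here or for the other members. The mRNA call was lost without either DTT library, at -0.52 (adjusted p = 0.0857) without the 1 h library and -0.41 (adjusted p = 0.122) without the 2 h library.

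HEM3, the porphobilinogen deaminase, had 476 and 349 mRNA RPKM with DTT and 524 without, and 207 and 202 footprint RPKM against 272. All of its DTT values were lower than the control, but the changes of -0.25 ± 0.17 and -0.31 ± 0.15 did not pass as deposited (adjusted p = 0.261 and 0.0953). HEM4, the uroporphyrinogen III synthase and the least read gene of the pathway, had 90.5 and 85.8 footprint RPKM with DTT and 68.5 without. That change of 0.36 ± 0.12 (adjusted p = 0.0329) was called as deposited, but not under median-ratio scaling, at 0.02 (adjusted p = 0.869), nor without the 1 h DTT library, at 0.31 (adjusted p = 0.174), or the 2 h one, at 0.40 (adjusted p = 0.0635).

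HEM12, the uroporphyrinogen decarboxylase, reached 1335 and 1285 mRNA RPKM with DTT, against 740.5 without it. Its footprints reached 890.4 and 869 RPKM, against 388. The rise was 0.83 ± 0.16 (adjusted p = 0.00203) in mRNA and 1.16 ± 0.10 (adjusted p = 6.69e-05) in footprints. HEM13, the oxygen-dependent coproporphyrinogen III oxidase, had 1133 mRNA RPKM at 1 h and 629 at 2 h of the retained DTT samples, against 442 with auxin alone. Its footprints were 1273 and 754 RPKM, against 519. HEM13 was high at 1 h and nearer the control at 2 h, with changes of 1.23 ± 0.30 (adjusted p = 0.00734) and 1.16 ± 0.23 (adjusted p = 0.003). In a model without the hour these were 0.93 (adjusted p = 0.148) and 0.91 (adjusted p = 0.0958), both no longer called, and the mRNA call was also lost without the filter on low values (1.23, adjusted p = 0.0724).

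HEM14, the protoporphyrinogen oxidase of the inner mitochondrial membrane, had 302 and 285 mRNA RPKM with DTT, against 124 without, and 113 and 106 footprint RPKM against 49.4. Both molecules rose by a like amount, 1.22 ± 0.20 (adjusted p = 0.000832) and 1.14 ± 0.12 (adjusted p = 0.000142). HEM15, the ferrochelatase, reached 2477 and 1669 mRNA RPKM, against 246, a change of 3.24 ± 0.21 (adjusted p = 1.15e-06) that ranked 36 of 5757 from the top. Its footprints reached 383 and 344 RPKM, against 227, a change of 0.71 ± 0.13 (adjusted p = 0.00197) or 1.64-fold. Both DTT libraries lay above the control in both molecules, a separation that was not counted over all genes. The footprints per mRNA of HEM15 fell to 0.155 and 0.206, against 0.921, a change in translational efficiency of -2.53 ± 0.20 (adjusted p = 9.55e-06), number 7 from the bottom of 5329 genes. No other member's translational efficiency passed the test, with changes from -0.58 ± 0.22 for HEM1 (adjusted p = 0.206) to 0.33 ± 0.16 for HEM12 (adjusted p = 0.337).

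With Hac1 depleted, DTT still raised HEM14 and HEM15 mRNA, but HEM15 footprints and HEM13 did not pass the test (TIR auxin DTT against TIR auxin). Of the 8 mRNAs, 3 were called higher and 2 lower, where 41.1% of all genes were called higher and 17.5% lower. In footprints 3 were called higher and 2 lower, against 49.6% and 19.8%, and in translational efficiency 1 was called lower and none higher, against 6.46% and 12.5%. The members' median change was 0.02 in mRNA and 0.03 in footprints, beside 0.26 and 0.29 over all genes.

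HEM1 footprints fell to 605 and 467 RPKM in depleted cells with DTT, against 747 and 722 in TIR cells with auxin alone, a change of -0.47 ± 0.10 (adjusted p = 0.00334), with mRNA at -0.23 ± 0.16 (adjusted p = 0.224). The footprint call was lost in the model without the hour, at -0.47 (adjusted p = 0.058). HEM2 mRNA fell to 978 and 955 RPKM, against 1257 and 1319, and HEM3 mRNA to 413 and 354, against 524 and 488. These were changes of -0.41 ± 0.13 (limma, adjusted p = 0.0167) for HEM2 and -0.40 ± 0.14 (adjusted p = 0.0251) for HEM3. In both genes the groups of 2 libraries did not overlap, which was not counted over all genes. In the model without the hour HEM3 mRNA was not called (-0.40, adjusted p = 0.0813). Each of these mRNA calls was lost when any one of the 1 h DTT, 2 h DTT or 2 h auxin-alone libraries was left out, with values of -0.42 (adjusted p = 0.0525), -0.41 (adjusted p = 0.0598) and -0.36 (adjusted p = 0.108) for HEM2, and -0.41 (adjusted p = 0.0781), -0.40 (adjusted p = 0.084) and -0.33 (adjusted p = 0.148) for HEM3. HEM3 footprints fell with them to 218 and 155 RPKM, against 273 and 253 (-0.52 ± 0.11, adjusted p = 0.00427), and HEM2 footprints, at 896 and 786 against 941 and 1061, did not pass (-0.25 ± 0.11, adjusted p = 0.0708) but were called lower without the 1 h library with auxin alone, at -0.38 (adjusted p = 0.0154). HEM4 footprints were 83.0 and 80.1 RPKM with DTT and 60.4 and 62.7 without, a rise of 0.40 ± 0.10 (adjusted p = 0.00675) that was 0.09 (adjusted p = 0.381) under median-ratio scaling.

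HEM12 rose to 966 and 951 mRNA RPKM, against 755 and 778, and to 598 and 600.3 footprint RPKM, against 366 and 382. The footprint change was 0.68 ± 0.08 (adjusted p = 0.00017). The mRNA change of 0.32 ± 0.13 (adjusted p = 0.0461) was 0.06 (adjusted p = 0.704) under median-ratio scaling, and leaving out any one of the 4 libraries gave 0.29 to 0.35 with adjusted p from 0.105 to 0.155. HEM13 had 436 and 374 mRNA RPKM with DTT, against 437 and 458 without, and 535 and 424 footprint RPKM, against 501 and 503. In footprints the groups overlapped, and neither change passed, at -0.15 ± 0.24 (adjusted p = 0.613) and -0.08 ± 0.18 (adjusted p = 0.73). The sign of both depended on the settings tried, which gave -0.56 to 0.26 in mRNA and -0.39 to 0.24 in footprints, and without the 1 h library with auxin alone the footprints were called lower, at -0.39 (adjusted p = 0.0433). HEM14 rose to 220.3 and 271 mRNA RPKM, against 123 and 156, and to 103 and 98.0 footprint RPKM, against 50.1 and 50.5, changes of 0.82 ± 0.16 (adjusted p = 0.00119) and 0.98 ± 0.09 (adjusted p = 5.31e-05). HEM15 mRNA rose to 581 and 475 RPKM, against 251 and 217 (1.17 ± 0.17, adjusted p = 0.000131), while its footprints were 286 and 254 RPKM, against 241 and 253 (0.13 ± 0.10, adjusted p = 0.295). The mRNA groups stood apart, which was not counted over all genes, and the footprint groups differed by 0.25 at 1 h and 0.01 at 2 h (log2). The ratio fell to 0.493 and 0.534, against 0.959 and 1.17, a change in translational efficiency of -1.04 ± 0.16 (adjusted p = 0.000769).

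**Figure D2:**
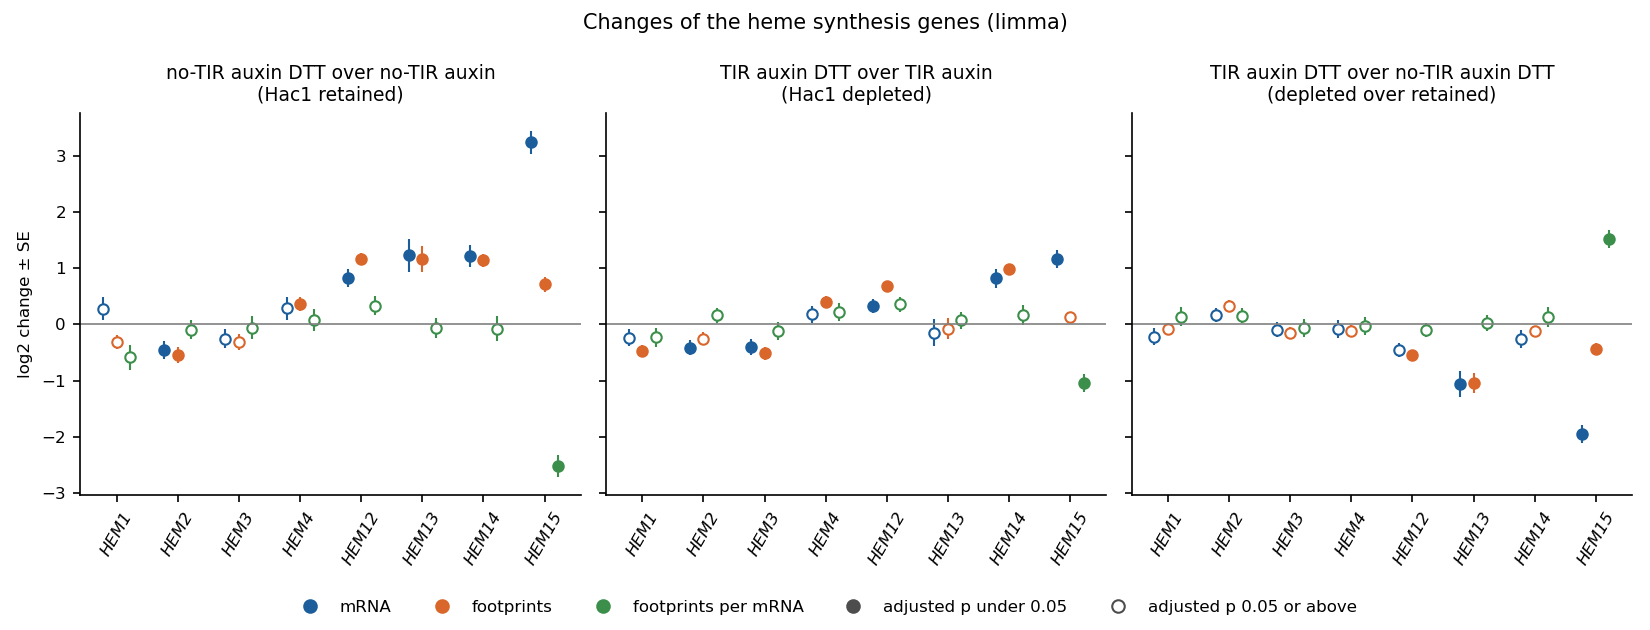
log2 change with its SE for mRNA, footprints and footprints per mRNA of the 8 genes in 3 comparisons of the auxin experiment, with filled points for an adjusted p under 0.05 (limma). HEM15 is the member whose mRNA and footprints part: 3.24 in mRNA and 0.71 in footprints under DTT with Hac1 retained, and -1.95 and -0.43 for depleted over retained.

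Setting depleted against retained cells under DTT directly, HEM15, HEM13 and HEM12 were the members called (TIR auxin DTT against no-TIR auxin DTT). HEM15 mRNA was -1.95 ± 0.17 (adjusted p = 3.58e-05) on the log2 scale, number 18 from the bottom of 5757 genes, and HEM13 mRNA -1.06 ± 0.24 (adjusted p = 0.0214). So 2 of the 8 mRNAs were called lower and none higher, where 3.75% of all genes were called lower and 2.33% higher. In footprints 3 were called lower and none higher, against 5.79% and 3.82%. In translational efficiency HEM15 was called higher and none lower, against 0.169% and 0.0751%. HEM1, HEM2, HEM3, HEM4 and HEM14 were called in none of the 3 measures. In 2 of 13 alternative limma fits HEM2 footprints were called higher in depleted cells. They were 0.38 higher against the mean of the 3 retained DTT groups (adjusted p = 0.0306). With a separate hour term for DTT samples they were 0.32 higher (adjusted p = 0.0398).

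HEM12 had 966 and 951 mRNA RPKM in depleted cells, against 1335 and 1285 in retained cells, and 598 and 600.3 footprint RPKM, against 890.4 and 869. The groups of 2 libraries did not overlap in either molecule. How many of all genes separate in this way was not counted, here or for HEM13 and HEM15. The footprints were lower by the test (-0.55 ± 0.08, adjusted p = 0.0053), and the mRNA at -0.45 ± 0.13 (adjusted p = 0.0615) did not pass it. The footprint call was lost without the retained 1 h library (-0.51, adjusted p = 0.101) and without the depleted 2 h library (-0.53, adjusted p = 0.0501). HEM13 had 436 and 374 mRNA RPKM in depleted cells, against 1133 and 629 in retained cells, with footprints at 535 and 424 against 1273 and 754. Every depleted library was below every retained one, and the footprint difference was -1.04 ± 0.18 (adjusted p = 0.0116). The HEM13 mRNA call was lost without the retained 1 h library (-0.90, adjusted p = 0.207) or the depleted 1 h library (-0.84, adjusted p = 0.28), in the model without the hour (-1.06, adjusted p = 0.227), without the filter on low values (-1.06, adjusted p = 0.192) and as the auxin effect in TIR minus that in no-TIR cells (-0.76, adjusted p = 0.583). The HEM13 footprint call was lost without the retained 1 h library (-0.87, adjusted p = 0.131), the depleted 1 h library (-0.94, adjusted p = 0.103) or the depleted 2 h library (-1.14, adjusted p = 0.0507), in the model without the hour (-1.04, adjusted p = 0.178), without the filter (-1.04, adjusted p = 0.0758) and as the difference of auxin effects (-0.75, adjusted p = 0.253). HEM12 footprints were not called as that difference either (-0.54, adjusted p = 0.0698), and HEM12 mRNA was called lower without the filter (-0.45, adjusted p = 0.0174) and against the mean of the 3 retained DTT groups (-0.36, adjusted p = 0.0412).

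HEM15 had 581 and 475 mRNA RPKM in depleted cells with DTT, against 2477 and 1669 in retained cells, and the groups were far apart. This mRNA call held in each of the 13 alternatives run, which gave -2.06 to -1.71. HEM15 footprints were 286 and 254 RPKM in depleted cells, against 383 and 344 in retained cells, groups that did not overlap but lay closer (-0.43 ± 0.10, adjusted p = 0.0391). The footprint call was lost when any one of the 4 libraries was left out, with changes of -0.50 (adjusted p = 0.12) and -0.36 (adjusted p = 0.205) without the depleted 1 h and 2 h libraries, and -0.38 (adjusted p = 0.321) and -0.48 (adjusted p = 0.147) without the retained ones. It was also lost in the model without the hour (-0.43, adjusted p = 0.103). The ratio was 0.493 and 0.534 in depleted cells, against 0.155 and 0.206 in retained cells. The change in translational efficiency was 1.52 ± 0.16 (adjusted p = 0.000161), number 8 from the top of 5329 genes. Without the filter on low values its call was lost, with the value at 1.52 (adjusted p = 0.105).

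The difference between the DTT responses of depleted and retained cells was also tested as an interaction, which uses the no-DTT samples of each strain. It takes the hour effect as equal with and without DTT, since no-TIR cells with auxin alone have no 2 h library. HEM15 mRNA responded less in depleted cells, with a difference of -2.07 ± 0.27 (adjusted p = 0.00266) on the log2 scale, and its translational efficiency fell less, a difference of 1.49 ± 0.25 (adjusted p = 0.0352). HEM15 was the member called, lower in mRNA and higher in translational efficiency, where 0.921% of all genes were called lower in mRNA (0.139% higher) and 0.113% higher in translational efficiency (0.113% lower). No member's footprint interaction passed limma's test, where 2.49% of all genes were called. An unadjusted p under 0.05 was found for 3 members, beside 971 of 5338 genes. The values were -1.24 ± 0.29 (adjusted p = 0.0805) for HEM13, -0.48 ± 0.13 (adjusted p = 0.114) for HEM12 and -0.58 ± 0.17 (adjusted p = 0.123) for HEM15. HEM13 mRNA stood at -1.37 ± 0.38 (adjusted p = 0.15). Without the TIR 1 h library with auxin alone, all 4 of these were called, at -1.61 (adjusted p = 0.00497), -0.50 (adjusted p = 0.0369) and -0.69 (adjusted p = 0.0292) in footprints and -1.86 (adjusted p = 0.0173) for HEM13 mRNA. In the model without the hour the HEM15 interactions were -1.87 (adjusted p = 0.15) in mRNA and 1.32 (adjusted p = 0.226) in translational efficiency, and without the filter on low values -2.07 (adjusted p = 0.117) and 1.49 (adjusted p = 0.408), none of them called. Under median-ratio scaling the mRNA call held, and translational efficiency at 1.52 (adjusted p = 0.0629) was not called. The call in translational efficiency was also lost without the retained 1 h DTT library (1.42, adjusted p = 0.107), the depleted 1 h DTT library (1.38, adjusted p = 0.0821), the TIR 1 h library with auxin alone (1.52, adjusted p = 0.0558) or the 2 h one (1.46, adjusted p = 0.0626).

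Auxin itself and TIR itself were checked in 4 further comparisons. Within TIR cells under DTT, HEM15 was again lower with auxin than with vehicle. It had 581 and 475 mRNA RPKM with auxin, against 2546 and 1514 with vehicle (-1.90 ± 0.17, adjusted p = 5.72e-05). HEM15 footprints were 286 and 254 RPKM with auxin, against 441 and 390.4 with vehicle (-0.62 ± 0.10, adjusted p = 0.0111), and its translational efficiency was higher by 1.28 ± 0.16 (adjusted p = 0.000843), a call lost without the filter on low values (1.28, adjusted p = 0.137). This comparison shares the TIR auxin DTT libraries with the preceding one. HEM15 was the one member called in mRNA, lower, where 4% of all genes were called lower and 2% higher, and the one called in translational efficiency, where 0.15% were called higher and 0.113% lower. In footprints HEM15 and HEM12 (-0.39 ± 0.08, adjusted p = 0.0281) were called lower, against 4.81% of genes lower and 1.8% higher, and both calls were lost when any one of the 4 libraries was left out, where HEM15 ranged from -0.69 to -0.55 (lowest adjusted p = 0.0512) and HEM12 from -0.43 to -0.35 (lowest adjusted p = 0.134). HEM13 mRNA, at 436 and 374 RPKM with auxin and 842 and 448 with vehicle, was -0.60 ± 0.24 (adjusted p = 0.147), so HEM13 mRNA passed the test against the no-TIR cells and not against the vehicle cells, and the difference between these results was not tested.

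Without TIR, auxin against vehicle under DTT called no member. HEM15 mRNA was 2477 and 1669 RPKM with auxin, against 2431 and 2199 with vehicle, a difference of -0.19 ± 0.17 (adjusted p = 1), and the groups overlapped. TIR against no-TIR cells with auxin alone, and with vehicle and DTT, called no member either. TIR minus no-TIR, HEM15 mRNA differed by 0.12 ± 0.21 with auxin alone and by -0.24 ± 0.17 with vehicle and DTT, and HEM13 mRNA by 0.31 ± 0.30 and -0.31 ± 0.24. At 1 h with auxin alone HEM13 had 437 mRNA RPKM in TIR cells and 442 in no-TIR cells, and the settings tried gave -0.02 to 0.80 for that difference. At an unadjusted p under 0.05, 1 member was below it in footprints for auxin against vehicle, as were 270 of 5338 genes. In the other measures and comparisons of these 3 it was 0 members. Few genes of the whole table were called in them. In mRNA the share was 0% for auxin against vehicle, 0% for TIR with auxin alone and 0% for TIR with vehicle and DTT. In footprints it was 0%, 0.0749% and 0%, and in translational efficiency 0.0188%, 0.188% and 0%, in the same order of comparisons.

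**Figure D3:**
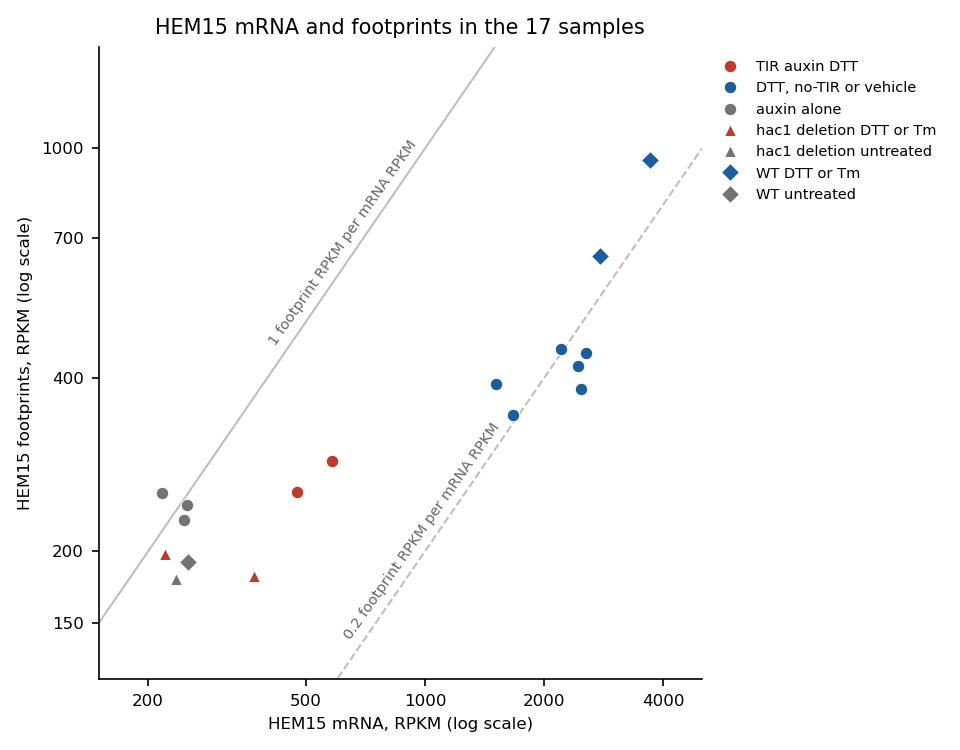
HEM15 footprint RPKM against HEM15 mRNA RPKM in the 17 samples, on log axes, with lines where the footprint to mRNA ratio is 1 (solid) and 0.2 (dashed). The depleted or deleted samples with DTT lie between the lines at 0.491 to 0.534, the 8 stressed samples with Hac1 near the dashed line at 0.155 to 0.258, and the unstressed samples and the hac1 deletion with Tm near the solid line; the tables of the 2 experiments were normalised separately.

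HEM15 changed its place within the pathway. It made up 12.8% to 14.7% of the summed mRNA RPKM of the 8 genes in depleted cells with DTT, against 29.8% to 38.4% in the 6 libraries with DTT and Hac1 retained, where it was the most abundant of the 8 mRNAs in each. With auxin alone it made up 5.71% to 6.85%, and there, as in depleted cells with DTT, HEM2 was the most abundant. In footprints the shares were 8.61% to 8.86% in depleted cells with DTT, 8.92% to 13.2% in the 6 retained libraries and 6.93% to 7.69% with auxin alone, and HEM13 or HEM12 was the highest in the retained libraries. Over those 6 libraries HEM15 mRNA had 1514, 2315 and 2546 (lowest, median and highest) RPKM and its ratio 0.155, 0.189 and 0.258 (lowest, median and highest). In all 6, and in wild-type cells with DTT or Tm, the HEM15 ratio was the lowest of the 8 genes, whereas HEM14 was lowest in the other 5 samples of the auxin experiment.

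HEM15 combined a rise in mRNA with a fall in translational efficiency. Translational efficiency has the same mRNA value subtracted, so the 2 are not independent. Under DTT with Hac1 retained, 31 of 5329 genes were called both higher in mRNA and lower in translational efficiency (0.582%), HEM15 among them, out of the 75 genes called lower in translational efficiency. On depletion, 5 genes were called both lower in mRNA and higher in translational efficiency (0.0938%). HEM15 met both rules with 3 others, IRC4, DMA2 and HNT1 (4 genes, 0.0751%), named here because the count is small. Their mRNA changed under DTT with Hac1 retained by 3.27 (IRC4), 3.24 (HEM15), 1.81 (DMA2) and 1.25 (HNT1) on the log2 scale. Their translational efficiency changed by -2.98, -2.53, -1.69 and -1.73 in the same order of genes. Both rules share the no-TIR auxin DTT libraries.

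**Figure D4:**
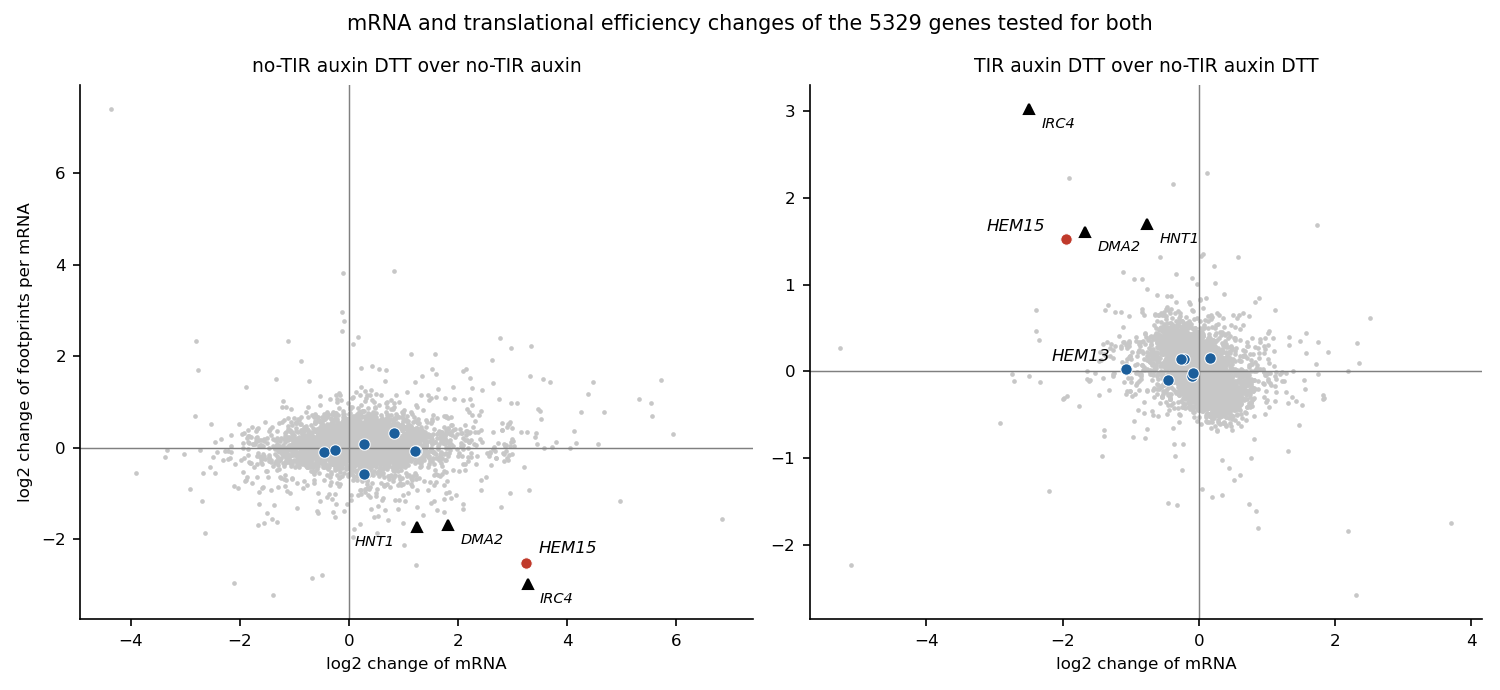
Change in translational efficiency against change in mRNA (log2) of the 5329 genes tested for both (grey), under DTT with Hac1 retained on the left and for depleted over retained on the right; HEM15 is red, the other 7 heme genes are blue, and triangles mark IRC4, DMA2 and HNT1. HEM15 lies at 3.24 and -2.53 on the left and at -1.95 and 1.52 on the right, and the other heme genes lie within the grey cloud.

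By likeness of level over the 11 samples of the auxin experiment, the 5 mRNAs nearest to HEM15 were INO1, SIL1, DOG1, URH1 and MPD1, with Pearson r of 0.997 for INO1 and 0.996 for MPD1. INO1 encodes inositol-3-phosphate synthase and SIL1 the exchange factor of the chaperone Kar2. In translational efficiency the nearest were GSY1, DDE1, ARG8, NCR1 and YPL247C, with r of 0.973 for GSY1 and 0.945 for YPL247C, and their changes under DTT with Hac1 retained ran from -1.26 to -0.96, smaller than the -2.53 of HEM15. These r describe the 11 samples, 8 of which had DTT, and a gene that separates those 8 from the other 3 takes part of its r from that split. The 5 mRNA neighbours were lower in depleted than in retained cells with DTT, from -2.74 (DOG1) to -1.26 (MPD1) on the log2 scale, beside -1.95 for HEM15. The changes given for both sets of neighbours come from the samples that gave r. Their direction was therefore set by the choice of these genes and is no separate result. The genes next to HEM15 in the RefSeq annotation, ALE1 and MPC54, did not pass the test in mRNA: ALE1 was 0.36 ± 0.17 (adjusted p = 0.118) and MPC54 0.01 ± 0.38 (adjusted p = 0.983) under DTT with Hac1 retained. ALE1 footprints were called higher there (0.32 ± 0.11, adjusted p = 0.0288).

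HEM13 was lower at 2 h than at 1 h in the samples with DTT. The 2 h minus 1 h difference of its mRNA was -0.22 (log2) in depleted cells with DTT, -0.85, -0.91 and -1.01 in the 3 DTT groups with Hac1 retained (no-TIR auxin, TIR vehicle and no-TIR vehicle), and 0.07 in TIR cells with auxin alone. In footprints the same differences were -0.33, -0.75, -0.60, -0.78 and 0.01. Each group has 1 library an hour, so whether the groups differ in this was not tested. HEM13 had 448 to 1133 mRNA RPKM over the 6 retained DTT libraries, with the 1 h library the higher in each group. In the shared hour term, HEM13 was lower at 2 h in mRNA (-0.58 ± 0.15, adjusted p = 0.0426) and footprints (-0.49 ± 0.12, adjusted p = 0.0275), HEM15 in mRNA (-0.39 ± 0.10, adjusted p = 0.0468) and HEM1 in footprints (-0.26 ± 0.06, adjusted p = 0.0286). That is 2 of 8 lower in each molecule and none higher, where 2.5% of mRNAs were called lower and 4.55% higher, and 9.97% of footprints lower and 14.5% higher. The 2 h minus 1 h difference of HEM15 mRNA ran from -0.75 in TIR cells with vehicle and DTT to -0.14 in no-TIR cells with vehicle and DTT. Under median-ratio scaling HEM15 mRNA was -0.40 (adjusted p = 0.0501), not called. None of these 4 hour calls held when any one DTT library, at 1 h or 2 h, was left out, where HEM13 mRNA ranged from -0.67 to -0.48, HEM13 footprints from -0.53 to -0.42, HEM15 mRNA from -0.46 to -0.30 and HEM1 footprints from -0.26 to -0.23.

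The deletion experiment gives the same genes in a second pair of strains and under a second stressor, with 1 library a group and therefore no test. HEM15 mRNA was 369 RPKM with DTT, 220.2 with Tm and 235 untreated in hac1 deletion cells, against 3691, 2766 and 253 in wild-type cells. Its footprints were 181, 198 and 179 RPKM in hac1 deletion cells, against 953, 652 and 191 in wild-type cells. Wild-type HEM15 mRNA was thus 14.6-fold higher with DTT and 10.9-fold higher with Tm than untreated, and its footprints 4.96-fold and 3.40-fold. This table was normalised separately from that of the auxin experiment, so levels are set side by side within it. The ratio was 0.491, 0.899 and 0.761 in hac1 deletion cells with DTT, with Tm and untreated, against 0.258, 0.236 and 0.757 in wild-type cells. The translational efficiency of HEM15 in hac1 deletion against wild-type cells was 0.93 higher with DTT and 1.93 higher with Tm (log2), with 0.01 untreated.

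HEM13 mRNA was 431, 454 and 489 RPKM in hac1 deletion cells with DTT, with Tm and untreated, against 1156, 825 and 592 in wild-type cells. Its footprints were 418, 461 and 510.2 RPKM, against 1030.4, 723 and 495. HEM13 was highest in the stressed wild-type samples and did not exceed its untreated value in the stressed hac1 deletion samples. HEM12 mRNA was 756, 707 and 763 RPKM in hac1 deletion cells, against 1255, 1032 and 659 in wild-type cells, and its footprints 439, 363 and 359, against 902, 795 and 346. In hac1 deletion against wild-type cells HEM12 footprints differed by -1.04 with DTT and -1.13 with Tm, more than its mRNA at -0.73 and -0.54. HEM14 mRNA was higher with DTT than untreated in both strains. With DTT it was 276 RPKM in hac1 deletion cells and 269 in wild-type cells, with Tm 140.1 and 132, and untreated 125 and 96.3.

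HEM2 mRNA and HEM1 footprints were lower in stressed wild-type cells than in untreated ones. HEM2 mRNA was 1288, 1177 and 1396 RPKM in hac1 deletion cells with DTT, with Tm and untreated, against 866, 760.0 and 1303 in wild-type cells. HEM1 footprints were 595, 715 and 744 RPKM, against 346, 441 and 591. In hac1 deletion against wild-type cells they differed by 0.78 with DTT, 0.70 with Tm and 0.33 untreated (log2). The median of all genes in footprints was 0.05, 0.17 and 0.20 in the same order. HEM3 mRNA differences from untreated cells were -0.23 with DTT and -0.02 with Tm in hac1 deletion cells, and -0.37 and -0.45 in wild-type cells, while HEM4 stood at 0.33, 0.14, 0.23 and 0.43 in the same order.

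Past 1 on the log2 scale, 2 members (HEM15 and HEM13) were lower in mRNA and 3 (with HEM12) in footprints in hac1 deletion against wild-type cells with DTT, where 7.41% and 8.63% of all genes were. With Tm it was 1 in mRNA (HEM15) and 2 in footprints (HEM15 and HEM12), where 9.42% and 9.26% were. Within hac1 deletion cells HEM14 mRNA was past 1 with DTT (1.14), where 9.31% of genes were higher, and no member was with Tm, where 0.562% were higher and 0.193% lower in mRNA. Within wild-type cells 2 members were higher in mRNA (HEM14 and HEM15) and 4 in footprints (HEM12, HEM13, HEM14 and HEM15) with DTT, where 18.4% and 21% of genes were. With Tm it was 1 in mRNA (HEM15) and 2 in footprints (HEM12 and HEM15), where 9.7% and 9.6% were. In translational efficiency HEM15 was the one member past 1. It was higher in hac1 deletion against wild-type cells with Tm, where 1% of genes were, and lower in wild-type cells with DTT and with Tm, where 0.965% and 0.719% were. In untreated hac1 deletion against wild-type cells no member was past 1 in any measure, where 3.44% of genes were higher and 4.5% lower in mRNA, 4.1% and 5.2% in footprints, and 0.719% and 1.57% in translational efficiency. Lower mRNA together with higher translational efficiency, each past 1, was found for HEM15 in hac1 deletion against wild-type cells with Tm, as for 0.208% of genes. Higher mRNA together with lower translational efficiency was found for HEM15 in wild-type cells with DTT and with Tm, as for 0.416% and 0.322% of genes. The median of all genes in mRNA was 0.09 in hac1 deletion against wild-type cells with DTT and 0.30 in wild-type cells with DTT against untreated, beside member medians of 0.07 and 0.58.

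**Figure D5:**
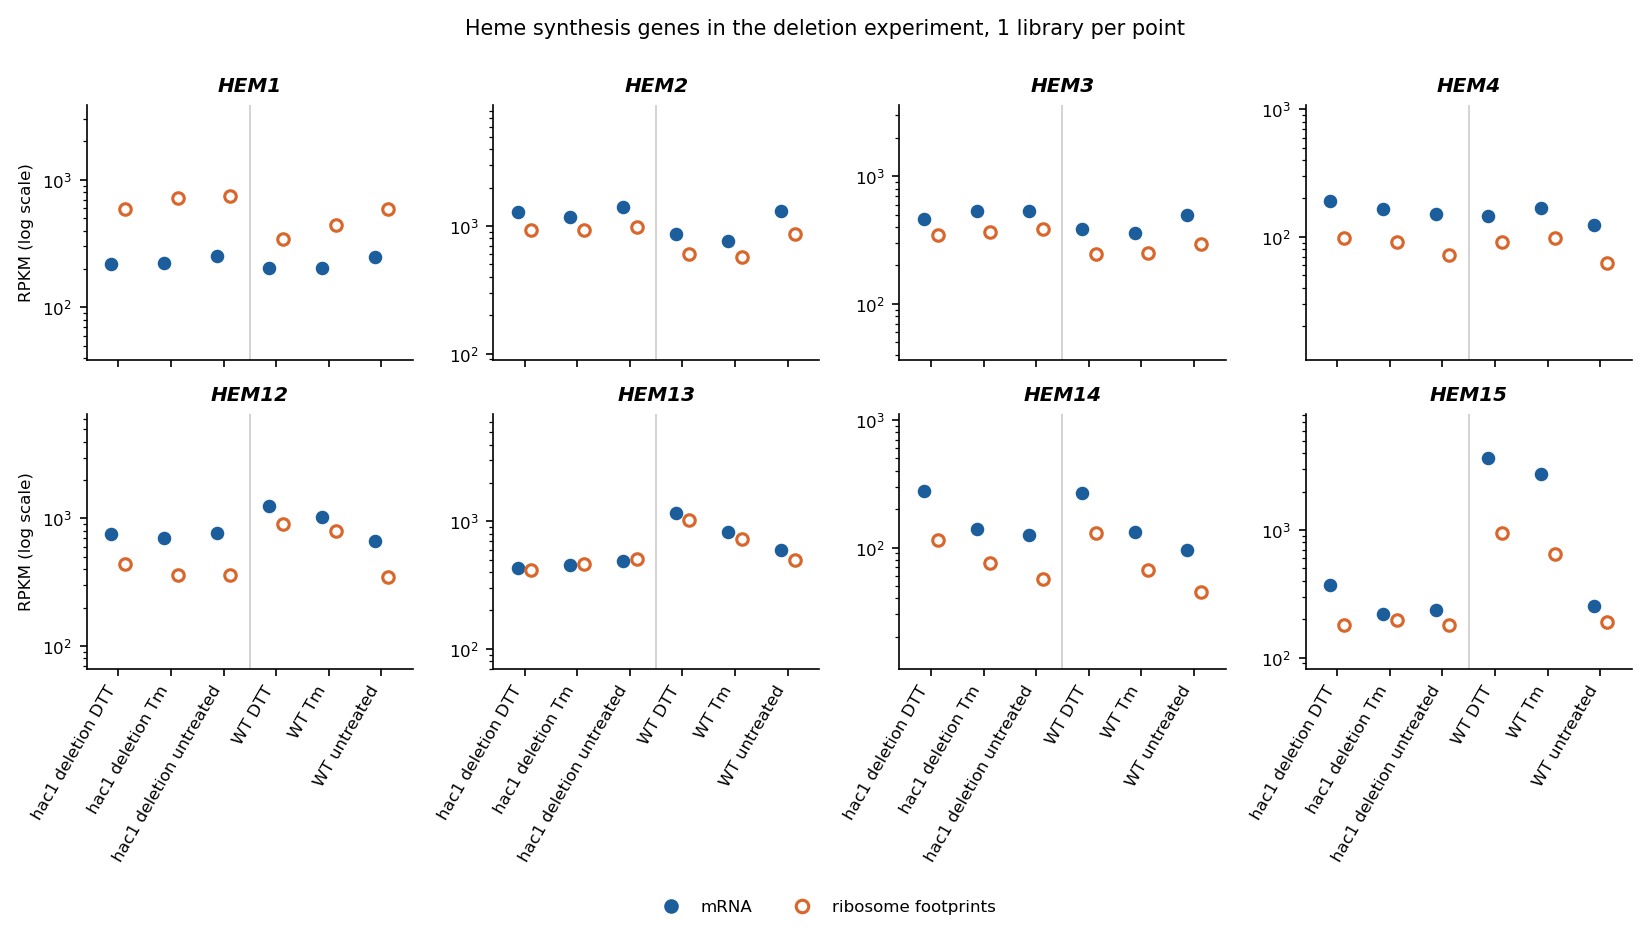
mRNA (filled) and footprint (open) RPKM of the 8 genes on log axes in the deletion experiment, 1 library per point, hac1 deletion cells left of the grey line and wild-type cells right of it. HEM15 mRNA lies at 220.2 to 369 RPKM in hac1 deletion cells, against 3691 and 2766 in stressed wild-type cells.

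Around the pathway, the counts of genes called in each related list are to be read against the mRNA response to DTT of the whole table, where 41.1% of all genes rose and 17.5% fell with Hac1 depleted, and 28.6% and 12% with Hac1 retained, and where the median gene changed by 0.26 and 0.24 (log2). Of 11 genes for substrate and iron supply, 3 rose and none fell in mRNA with Hac1 depleted, and 3 rose and 1 fell with Hac1 retained, shares below those of all genes, with medians of 0.16 with Hac1 depleted and -0.09 with Hac1 retained. MRS4, a mitochondrial iron carrier, changed by 1.50 ± 0.14 (adjusted p = 8.08e-06) with Hac1 depleted and 2.15 ± 0.18 (adjusted p = 6.24e-06) with Hac1 retained, and LSC2, a succinyl-CoA ligase subunit, by 1.05 ± 0.14 (adjusted p = 7.47e-05) and 1.90 ± 0.17 (adjusted p = 1.31e-05). HEM25, the mitochondrial glycine carrier of heme synthesis, rose with Hac1 retained (0.64 ± 0.19, adjusted p = 0.0199), and the threonine aldolase gene GLY1, a source of glycine, fell in mRNA and in footprints (in footprints -1.27 ± 0.18, adjusted p = 0.000636). Depleted against retained under DTT, LSC2 was lower in mRNA and in footprints (in footprints -0.83 ± 0.10, adjusted p = 0.00186) and GLY1 mRNA higher (0.65 ± 0.17, adjusted p = 0.0417).

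Of 6 mitochondrial hemoprotein genes, 4 fell and none rose in mRNA under DTT with Hac1 depleted and with Hac1 retained, in both cases CYC1, CYT1, CYB2 and SDH3, where 17.5% and 12% of all genes fell. The list's median was -0.91 with Hac1 depleted and -1.25 with Hac1 retained. Cytochrome c (CYC1) changed by -1.48 ± 0.26 (adjusted p = 0.000636) with Hac1 depleted and -2.34 ± 0.33 (adjusted p = 0.000307) with Hac1 retained, cytochrome c1 (CYT1) by -1.01 ± 0.23 (adjusted p = 0.00331) and -1.98 ± 0.30 (adjusted p = 0.00042), and the lactate dehydrogenase cytochrome b2 (CYB2) by -1.16 ± 0.18 (adjusted p = 0.000295) and -1.68 ± 0.23 (adjusted p = 0.00026). Depleted against retained under DTT, limma called no gene of this list in mRNA (2 had an unadjusted p under 0.05, beside 1326 of 5757 genes). CCP1, cytochrome c peroxidase, was lower in footprints (-0.58 ± 0.12, adjusted p = 0.0215). Among 9 other hemoproteins, 2 rose and 3 fell in mRNA with Hac1 depleted, and none rose and 1 fell with Hac1 retained, beside 41.1% higher and 17.5% lower of all genes with Hac1 depleted and 28.6% and 12% with Hac1 retained. Their medians were 0.19 with Hac1 depleted and -0.01 with Hac1 retained. The flavohemoglobin gene YHB1 fell in both, with -2.61 ± 0.16 (adjusted p = 5.51e-07) with Hac1 depleted and -3.37 ± 0.21 (adjusted p = 7.88e-07) with Hac1 retained, and was higher in depleted than retained cells (0.96 ± 0.16, adjusted p = 0.00456). CYB5, cytochrome b5 of the endoplasmic reticulum, was lower in depleted than retained cells in mRNA (-0.91 ± 0.16, adjusted p = 0.00571) and footprints (-0.92 ± 0.10, adjusted p = 0.00149).

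Of 7 regulators of heme and oxygen response, HAP1, the heme-responsive activator, rose and HAP3 fell with Hac1 depleted, by 1.19 ± 0.15 (adjusted p = 5.13e-05) for HAP1 and -0.85 ± 0.23 (adjusted p = 0.00801) for HAP3, and HAP1 was the one called with Hac1 retained (0.78 ± 0.18, adjusted p = 0.00632). These counts stand beside 41.1% higher and 17.5% lower of all genes with Hac1 depleted and 28.6% and 12% with Hac1 retained, and the list's median was 0.20 with Hac1 depleted and 0.07 with Hac1 retained. ROX1 was called in none of the 3 measures with Hac1 depleted, with Hac1 retained or between them. Of 7 other genes known to be repressed by Rox1, 6 were tested, and 3 rose and 2 fell in mRNA with Hac1 depleted and 3 rose and 1 fell with Hac1 retained, to be read against the same shares of all genes. Their median was 0.34 with Hac1 depleted and 0.58 with Hac1 retained. The cell wall mannoprotein gene TIR1 (a yeast gene, unrelated to the TIR receptor of the depletion system) changed by 3.97 ± 0.37 (adjusted p = 8.6e-06) with Hac1 depleted and 2.34 ± 0.47 (adjusted p = 0.00248) with Hac1 retained, and CYC7, a cytochrome c isoform, by -1.56 ± 0.18 (adjusted p = 3.83e-05) and -1.22 ± 0.23 (adjusted p = 0.00182). In depleted against retained cells TIR1 was higher (1.47 ± 0.37, limma, adjusted p = 0.0397) and the other 5 were not called. Of these, AAC3 (-0.54 ± 0.24, adjusted p = 0.213), ANB1 (-0.49 ± 0.17, adjusted p = 0.115) and CYC7 (-0.47 ± 0.18, adjusted p = 0.165) stood lower with an unadjusted p under 0.05. That threshold was also passed by 1326 of all 5757 genes tested, so these 3 are not read as a result. The list's median was -0.19 beside 0.02 over all genes.

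In the siroheme branch, which leaves the pathway at uroporphyrinogen III, MET5 mRNA fell with Hac1 depleted (-0.88 ± 0.18, limma, adjusted p = 0.00176) and with Hac1 retained (-1.42 ± 0.23, adjusted p = 0.000746). MET8 mRNA rose with Hac1 retained (0.94 ± 0.22, limma, adjusted p = 0.0059). In footprints 2 of the 3 genes fell and none rose with Hac1 depleted and with Hac1 retained, where 19.8% and 14.6% of all genes fell. In translational efficiency 1 fell and none rose in each, where 6.46% and 1.41% fell. The branch's medians were -0.85 and -1.44 in footprints and -0.62 and -0.92 in translational efficiency. Of 5 genes for heme A synthesis and heme attachment, CYC2 rose (0.65 ± 0.21, adjusted p = 0.0271) and COX15 fell (-0.48 ± 0.16, adjusted p = 0.0335) in mRNA with Hac1 retained, beside 28.6% and 12% of all genes. With Hac1 depleted limma called none in mRNA (0 at an unadjusted p under 0.05, beside 3659 of 5757 genes). Between depleted and retained cells it called none either (1 at that threshold, beside 1326). HMX1, the heme oxygenase gene, was not called in mRNA, footprints or translational efficiency, and PUG1, a heme and protoporphyrin transporter gene, was below the filter on low values.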

How the data were processed

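The series holds 34 libraries, 22 of the auxin experiment and 12 of the deletion experiment, in 1 table per experiment with 6679 genes each. The authors deposited RPKM values per gene. Per the file headers the deletion table holds RPKM, with a word for merging in each column name that is not explained. The auxin table names no unit and was read as RPKM from its values, since it has the same genes and range and its low values step with gene length. Per the submitters' processing notes CASAVA, bcl2fastq 2.17 and Bowtie2 were used; a counting rule and a genome build are not stated there. Among the low non-zero values of genes with a RefSeq length, 79.5% to 89.3% were whole multiples of 1 read within a tolerance of 0.02. That was too few for a count model, so depths are estimates and intervals from counts were not drawn.

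The authors' RPKM were turned into log2(RPKM + 1) and genes averaging 5 RPKM or more over the libraries of a molecule were kept. Translational efficiency is log2 footprints minus log2 mRNA of the same sample (strain, treatment and hour). limma 3.58.1 in R 4.3.3 fitted 1 model a measure to all auxin libraries (6 groups, additive labelled hour, 4 residual degrees of freedom, mean-variance trend), with Benjamini-Hochberg adjustment over all genes tested and calls at an adjusted p under 0.05. The 2 values in each group are the 1 h and the 2 h library. Fold changes on this scale understate the change of low genes. In the deletion experiment, with 1 library a group, no test was made and differences of at least 1 on the log2 scale were counted. Python 3.11.15 with pandas 2.3.3 and matplotlib 3.10.9 did the rest.

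The hour serves as the replicate number. Deviations of same-hour libraries from their group means correlated at -0.09 to 0.61 in mRNA (median 0.25) and 0.02 to 0.77 in footprints (median 0.63) over 5 groups, so the number is a shared time and was not shown to pair samples.

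The text names the 8 genes throughout, HAC1 and KAR2 as checks, up to 3 called genes per related list and direction with the largest change in the first 3 comparisons, and the 5 genes most correlated with HEM15 in mRNA and in translational efficiency; genes next to HEM15, the genes that share its joint pattern, and ROX1, AAC3, ANB1, HMX1 and PUG1 were named after their values were seen. The members, lists and tests were chosen with earlier results of these data known. Of the 6679 systematic names, 5994 matched the RefSeq R64 gene table, which gave symbols and neighbours, and 685 did not. Alternatives tried were median-ratio scaling, pseudocounts of 0.5 and 5, no filter, no hour term, no trend, each library left out, the mean of the 3 retained DTT groups as comparison, and, added after seeing the data, a separate hour term for DTT samples and the auxin effect in TIR minus that in no-TIR cells. The promoter motif search planned for the 8 genes was not run, and no sequence was used here.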

Additional observations from a re-analysis of the deposited data

Results flagged for a closer look

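The DTT response of HEM15 differed between depleted and retained cells by a test of the difference itself. In mRNA the difference of log2 changes was -2.07 ± 0.27 (limma, adjusted p = 0.00266). In translational efficiency it was 1.49 ± 0.25 (limma, adjusted p = 0.0352), and the single no-TIR library with auxin alone enters both values.

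In the deletion experiment, among responses past 1 on the log2 scale in either strain, 3 had opposite signs in the strains, each from 1 library a group, and these differences were not tested. Smaller responses with opposite signs, such as HEM13 mRNA under DTT at -0.18 in hac1 deletion cells and 0.96 in wild-type cells, are not listed. HEM13 footprints under DTT changed by -0.29 in hac1 deletion cells and by 1.06 in wild-type cells, a difference of -1.34 on the log2 scale. HEM15 mRNA under Tm changed by -0.09 in hac1 deletion cells and by 3.45 in wild-type cells, a difference of -3.54. HEM15 translational efficiency under Tm changed by 0.24 in hac1 deletion cells and by -1.68 in wild-type cells, a difference of 1.92.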

How the results depend on the processing

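Of 39 called member results, 111 of 437 alternative fits ended the call and 0 turned the sign; of 177 results not called, 27 of 2035 fits gained a call. HEM15 mRNA and translational efficiency under DTT, with Hac1 depleted or retained, and HEM15 mRNA in depleted against retained cells kept their calls in every alternative run. HEM15 footprints in depleted against retained cells were -0.43 without the filter (adjusted p = 0.0807), without the hour term (0.103) and without the trend (0.05), -0.37 as a difference of auxin effects (0.341), and -0.50 to -0.36 with a library left out, none called by limma. HEM15 translational efficiency there was 1.52 without the filter (adjusted p = 0.105, limma).

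The reported fit holds the labelled hour as an additive term. Without that term, members called in mRNA were 3 with Hac1 depleted, 1 in depleted against retained cells and 0 for the difference of responses. In footprints 1 was called in depleted against retained cells, and in translational efficiency 0 for the difference of responses. As reported these counts are 5, 2, 1, 3 and 1. With a separate hour for DTT samples they were 2 in mRNA with Hac1 depleted, 1 in footprints (0 as reported) and 0 in translational efficiency for the difference of responses. Without the filter they were 0 in mRNA and 0 in translational efficiency for the difference, 1 in footprints and 0 in translational efficiency for depleted against retained, and 2 in translational efficiency with Hac1 depleted (1 as reported). Median-ratio scaling or no trend gave 0 in translational efficiency for the difference, and the difference of auxin effects gave 1 in mRNA and 0 in footprints. With a library left out, mRNA counts were 2 to 4 with Hac1 depleted, 1 to 2 in depleted against retained cells and 1 to 2 for the difference, footprint counts 0 to 2 in depleted against retained cells and 0 to 3 for the difference, and 0 to 1 in translational efficiency for the difference. With a pseudocount of 0.5, 1 member was past 1 in footprints of hac1 deletion cells with DTT (0 as reported). The cause of these changes was not tested.

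Each group of the auxin experiment has at most 2 libraries, taken at different hours, and no-TIR cells with auxin alone have 1, so the retained response and the difference of responses rest on 1 control library that cannot be left out. The deletion experiment has no replicate. HEM4 has the fewest reads, as few as 101 footprint reads in a library, HEM13 has the largest SE of the 8 genes in both molecules under DTT with Hac1 retained, and RPKM per gene do not separate transcript isoforms.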
